A study of Mus musculus with 2 samples.

Results

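The pancreatic acinar cell makes digestive enzymes, and 10 of its genes were followed through single-cell RNA-seq of mouse spleen. They are the trypsinogens Prss2, Try4 and Try5, the elastases Cela1, Cela2a and Cela3b, the chymotrypsinogen Ctrb1, and Reg1, Reg2 and Reg3b of the Reg family. All 10 were found by symbol among the 2000 genes of both deposited files. They were chosen by the acinar signal seen in these same files, above all by shares of cells that were higher in the tacrolimus library than in the anti-IL-2 library, so that difference is described here with no test, as is everything else measured in the same cells.

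Both libraries came from the spleens of wild-type BALB/c mice on day 6 after lethal irradiation and intravenous injection of spleen and bone marrow cells of wild-type C57BL/6 mice. The recipients had been given either tacrolimus, an inhibitor of calcineurin, or a monoclonal antibody against IL-2, from day 0 to day 6. The labels call the cells T cells and give their strain as that of the donor. There was 1 library per treatment, the number of mice behind each was not given, and treatment and library cannot be told apart. A recipient spleen at this stage can also still hold host cells, and the files do not separate donor from host.

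The tacrolimus library held 1688 droplets, of which 1475 had at least 200 detected genes and were kept as cells, with a median of 13254 unique molecular identifiers (UMIs, each standing for 1 captured RNA molecule). The anti-IL-2 library held 1551 droplets, of which 1229 were kept, with a median fitted total of 13305 UMIs. None of the 6 general T-cell genes looked for (Cd3d, Cd3e, Cd3g, Trac, Lat and Lck) was among the 2000. Of the genes that were, Cd8b1 was detected in 74.2% of kept tacrolimus cells and 67.3% of kept anti-IL-2 cells, and Cd4 in 26.2% of kept tacrolimus cells and 30.9% of kept anti-IL-2 cells. All intervals below are exact 95% intervals (binomial for shares, Poisson for UMIs per cell) that cover counting error only, and with 1 library per treatment there are no p-values.

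Acinar cells store their digestive enzymes as inactive zymogens in granules and release them into the pancreatic duct. Trypsinogen is cut to trypsin in the gut, and trypsin then activates the chymotrypsinogens and proelastases. Reg proteins are small secreted C-type lectin-like proteins that acinar cells make in quantity when the pancreas is inflamed or stressed. Several of the family, Reg3b among them, are also made by the gut epithelium, where they act on bacteria. An acinar cell gives much of its RNA to few genes, so the transcripts of its secreted proteins are among the most abundant of any cell.

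Of the 10 genes, 7 code for serine proteases and 3 for lectin-like proteins. Prss2 (chr6:41521787-41525079, plus strand), Try4 (chr6:41302269-41305532, plus strand) and Try5 (chr6:41311233-41316841, minus strand) lie in 1 trypsinogen cluster on chromosome 6. Reg1 (chr6:78422711-78428667), Reg2 (chr6:78395623-78408106) and Reg3b (chr6:78370657-78373466) lie close together on the plus strand of the same chromosome. Cela2a (chr4:141814962-141826160) and Cela3b (chr4:137420999-137430540) are on chromosome 4, Ctrb1 (chr8:111686519-111691010) on chromosome 8 and Cela1 (chr15:100674421-100687921) on chromosome 15, all on the minus strand. Positions are those of GENCODE M21 on mm10, and all 10 genes are annotated as protein coding.

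The trypsinogens are near copies, which matters for counting. The first 90 coding bases of each are shown, 5′ to 3′, with the 7 positions at which the 3 genes are not all alike in capitals.
Prss2: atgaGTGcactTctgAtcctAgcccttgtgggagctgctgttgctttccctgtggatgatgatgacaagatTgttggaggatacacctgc
Try4: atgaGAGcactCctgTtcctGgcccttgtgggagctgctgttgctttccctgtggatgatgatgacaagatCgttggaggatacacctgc
Try5: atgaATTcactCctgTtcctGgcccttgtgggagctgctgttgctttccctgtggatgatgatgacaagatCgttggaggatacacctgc
Try4 and Try5 share 87 of these 90 bases, Prss2 and Try4 85, and Prss2 and Try5 84. Over the whole coding sequence Try4 and Try5 are 97.4% identical, Prss2 and Try4 91.6%, and Reg1 and Reg2 78.7%. Nothing in the labels says how reads that fit several genes were handled, so the split of UMIs among the 3 trypsinogens is uncertain. Their sum would be too low if such reads were dropped.

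The transcription factor complex PTF1, which drives the acinar enzyme genes, binds an E-box (CANNTG) together with a TC-box (TTTCCC). The 250 bases before the RefSeq start of 4 members are shown, 5′ to 3′ on the gene's own strand (GRCm38.p6), 1 for each family with Cela1 for the elastases because its values part from those of the others below. Capitals mark CANNTG, which reads alike on both strands, TTTCCC or its reverse complement GGGAAA, and TATAAA on the gene's strand, and 0 of these overlap.
Prss2, chr6:41521526-41521775, plus strand: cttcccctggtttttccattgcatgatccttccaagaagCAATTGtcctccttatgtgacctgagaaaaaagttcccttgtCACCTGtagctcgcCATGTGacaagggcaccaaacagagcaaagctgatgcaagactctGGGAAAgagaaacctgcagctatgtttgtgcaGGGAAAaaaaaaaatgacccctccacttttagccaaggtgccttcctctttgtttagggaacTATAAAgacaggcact
Cela1, chr15:100687921-100688170, minus strand: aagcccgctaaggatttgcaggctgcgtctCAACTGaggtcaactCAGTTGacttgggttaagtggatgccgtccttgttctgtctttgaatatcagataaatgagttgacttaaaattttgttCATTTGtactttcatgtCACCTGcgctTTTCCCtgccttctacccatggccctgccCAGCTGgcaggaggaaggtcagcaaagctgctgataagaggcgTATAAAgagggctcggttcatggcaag
Ctrb1, chr8:111691011-111691260, minus strand: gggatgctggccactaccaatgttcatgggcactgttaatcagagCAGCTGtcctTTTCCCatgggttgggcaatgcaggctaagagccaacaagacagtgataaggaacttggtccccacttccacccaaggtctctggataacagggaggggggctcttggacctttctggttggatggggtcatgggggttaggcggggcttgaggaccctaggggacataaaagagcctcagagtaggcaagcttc
Reg3b, chr6:78370635-78370884, plus strand: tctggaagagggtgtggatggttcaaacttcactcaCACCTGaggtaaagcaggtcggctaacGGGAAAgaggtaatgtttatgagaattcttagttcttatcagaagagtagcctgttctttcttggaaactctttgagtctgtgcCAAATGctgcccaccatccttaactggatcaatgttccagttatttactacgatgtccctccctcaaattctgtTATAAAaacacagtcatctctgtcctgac
Of the 10 members, 9 had a promoter in the RefSeq table. CANNTG was in 9 of the 9 and in 66.2% of all 32851 promoters of that length. TTTCCC, on either strand, was in 6 of the 9 and in 22.0% of all, and CANNTG together with TTTCCC was in 6 of the 9 and in 14.2% of all. TATAAA was in 6 of the 9 and in 7.59% of all. In Cela1 and in Ctrb1 alike, 4 bases separate a CANNTG from the TTTCCC after it. Such a match describes the letters and is not a site.

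UMIs of the 10 genes were concentrated in 1 droplet of the tacrolimus library and, apart from it, spread thinly over the rest. The droplet with the most held 53413 UMIs of the 10 genes, 60.8% of its 87844 UMIs and 95.4% of the 56009 UMIs of these genes in all kept cells. Ctrb1 gave 15491 of them, Prss2 6428, Try5 5301 and Try4 2479. The elastases gave 6168 (Cela2a), 1980 (Cela3b) and 732 (Cela1), and the Reg genes 5928 (Reg2), 5714 (Reg3b) and 3192 (Reg1). Ctrb1 was the highest of the 10 and Cela1 the lowest.

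That droplet matched the acinar cell by its other genes too. All 20 measured genes of an acinar enzyme list had a UMI in it, as did all 15 measured genes for other secreted or granule products, and together they made up 75084 UMIs, 85.5% of its total. Cd4, Cd8a, Cd8b1 and Lyz2 had 0 UMIs, as had every measured gene of the B-cell, myeloid, erythroid, endothelial and stromal lists. Of 4 measured genes of a duct list 3 had UMIs there, Krt18 (16), Epcam (6) and Muc1 (6). Of 3 measured genes of a plasma-cell list only Xbp1, a factor of secretory cells, had UMIs, 39 of them. Of 5 acinar transcription factors only Bhlha15 was measured, and it had 0 UMIs there.

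A further 5 droplets had 50 or more UMIs of the 10 genes and were set apart with the first. They held 3868, 1331, 224, 106 and 56 UMIs, and the first droplet below the threshold held 23, followed by 15, 12 and 9. The threshold was chosen after these values were seen. The droplets with 3868, 1331 and 224 fell under the minimum of 200 detected genes, with totals of 6259, 2224 and 932 UMIs and 108, 77 and 63 genes. Genes of the acinar lists took 94.8%, 95.5% and 86.8% of their UMIs in the 2000 genes, and they had 0 UMIs of Cd4, Cd8a and Cd8b1. The droplets with 106 and 56 were of another kind, with totals of 20939 and 35449 UMIs, 24 and 25 UMIs of Cd8b1, and members that made up 0.506% and 0.158% of the total. The 6 droplets together held 95.5% of all 61800 member UMIs in the library.

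**Figure D1:**
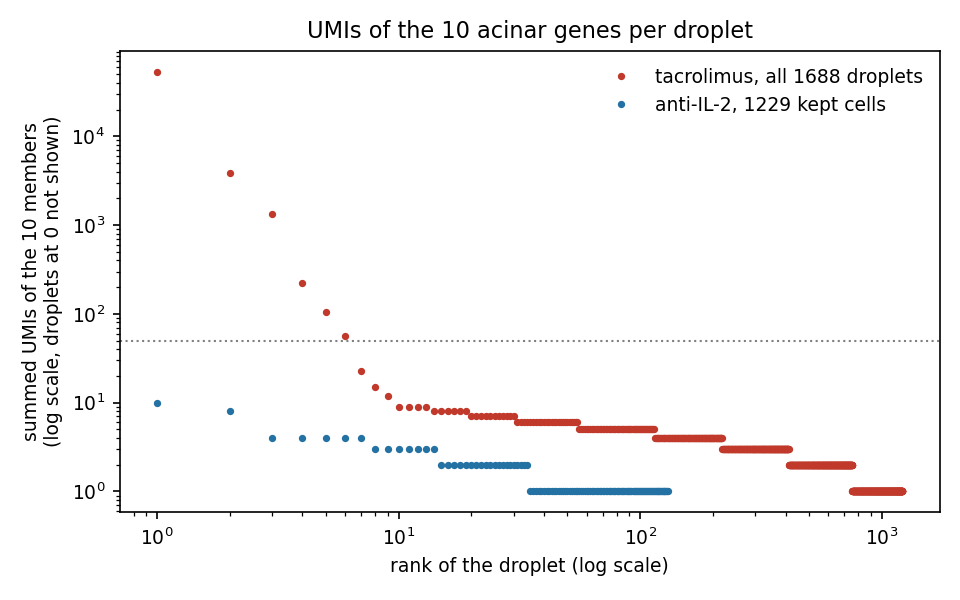
Droplets of each library ranked by their summed UMIs of the 10 acinar genes, both axes logarithmic, for all 1688 tacrolimus droplets and the 1229 kept anti-IL-2 cells, with droplets at 0 left out and a dotted line at 50 UMIs, from which a droplet was set apart. The tacrolimus droplets fall from 53413 to 56 UMIs over the first 6 ranks and lie at 23 or fewer after that, and the highest anti-IL-2 cell has 10.

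Among the other 1472 kept tacrolimus cells, 1050 (71.3%) held at least 1 UMI of the 10 genes and 422 held 0. They held 2434 UMIs of these genes, a mean of 1.65 per cell. The variance of the summed UMIs was 1.83 times the mean, where a Poisson law would give 1 and would put a UMI in 80.9% of cells. There were 37 cells with 6 or more, where a Poisson law gives 10.4. The summed UMIs were therefore spread somewhat more unevenly than independent draws, yet no cell in this set held more than 23.

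Taken singly, the genes were close to an even spread. The trypsinogen Prss2 had 265 UMIs in 237 of the 1472 cells (16.1%, interval 14.3 to 18.1), and at most 6 in a cell. Try5 had 191 UMIs in 175 cells (11.9%, 10.3 to 13.7) and Try4 104 UMIs in 96 cells (6.52%, 5.31 to 7.91). For these 3 genes a Poisson law at the same mean gives 16.5%, 12.2% and 6.82% of cells.

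Of the elastases, enzymes that cut elastin and other proteins, Cela2a had 242 UMIs in 220 cells (14.9%, 13.2 to 16.9) and Cela3b 92 UMIs in 83 cells (5.64%, 4.52 to 6.94). Cela1 had 141 UMIs in 121 cells (8.22%, 6.87 to 9.74). The Poisson shares are 15.2%, 6.06% and 9.13%, so Cela1 fell furthest below its Poisson share among the elastases. The chymotrypsinogen Ctrb1 had the most, 728 UMIs in 533 cells (36.2%, 33.8 to 38.7), against a Poisson share of 39.0%.

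Reg3b, a lectin with antibacterial action in the gut, had 291 UMIs in 250 cells (17.0%, 15.1 to 19.0). Reg2 had 246 UMIs in 213 cells (14.5%, 12.7 to 16.4) and Reg1 134 UMIs in 121 cells (8.22%, 6.87 to 9.74). Poisson shares are 17.9%, 15.4% and 8.70%. No cell in this set held more than 3 UMIs of any Reg gene.

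Among the 1472 kept cells not set apart, other genes at the same level were spread less evenly. The variance over the mean ran from 1.05 (Try5) to 1.37 (Cela1) for the members, while 380 other genes with a mean in the same range, 0.0625 to 0.495 UMIs per cell, had a median of 2.08. The 1% of cells with the most UMIs of a gene held 8.65% of the UMIs of Ctrb1, 11.7% of those of Reg3b and 14.3% of those of Prss2, against a median of 24.7% for the other genes. This share was 24.8% for Cela1 and 26.1% for Cela3b, which had the fewest UMIs of the 10. Droplets were set apart by member UMIs and none by UMIs of the other genes, so lower values of the members were favoured. Over all kept cells the members' variance over the mean ran from 612 (Cela1) to 14730 (Ctrb1). The more even spread is therefore not read as a trait of the members. The correlation with a cell's total lay between -0.038 and 0.016 for the members other than Cela1 and was 0.070 for Cela1, against a median of 0.124 for the other genes (Pearson's r over 1472 cells of 1 library, a description).

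The amount of the members other than Cela1 per droplet did not rise with how much RNA the droplet held. The 9 members without Cela1 summed to 1.66 UMIs per droplet (1.49 to 1.85) in 210 droplets under the minimum of genes, whose median total was 1639 UMIs. In 4 sets of 368 kept cells each, ordered by total, with medians of 7526, 11343, 15542 and 24527 UMIs, the same sum was 1.57, 1.56, 1.68 and 1.43 per cell. The droplets with the least RNA thus held no fewer of these UMIs than the deepest cells (1.31 to 1.55).

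Cela1 gave 0.0905 UMIs per droplet (0.0545 to 0.141) in the droplets under the minimum. In the 4 sets, low to high, it gave 0.0679, 0.0707, 0.125 and 0.120 per cell, and the intervals of the shallowest set (0.0440 to 0.100) and the deepest (0.0869 to 0.161) overlap. Epcam, a surface protein of epithelium that was found in lymphoid clusters here, went up with depth throughout, from 0.0143 under the minimum to 0.0870, 0.0951, 0.155 and 0.299 in the sets. Ctrb1, taken by itself, gave 0.476 under the minimum and 0.478, 0.497, 0.541 and 0.462 in the sets.

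**Figure D2:**
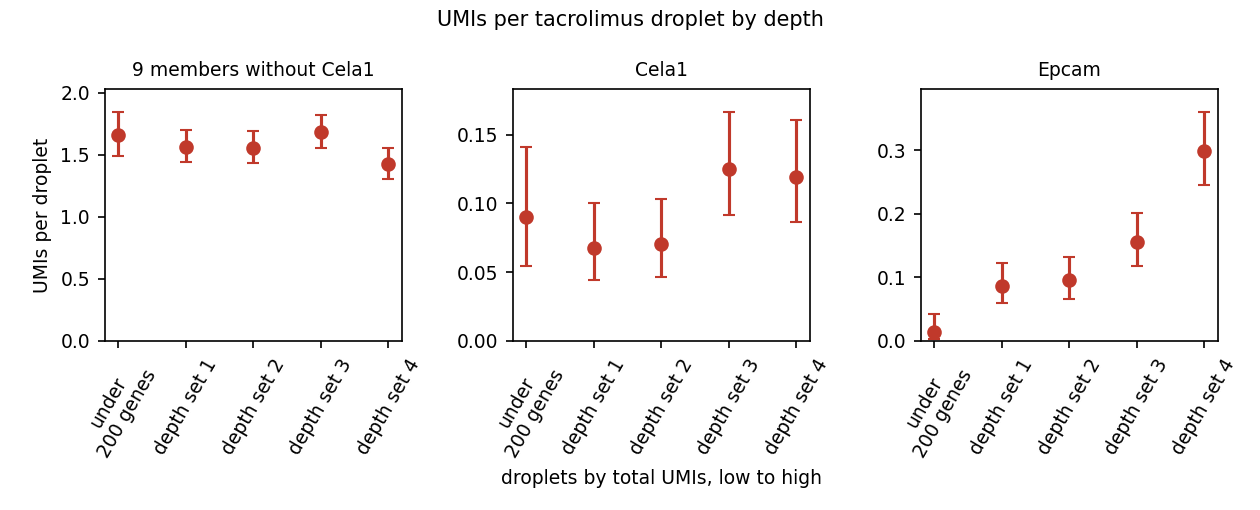
UMIs per tacrolimus droplet, with exact Poisson 95% intervals as bars, in droplets under 200 detected genes and in 4 sets of 368 kept cells ordered by total UMIs, for the sum of the 9 members without Cela1, for Cela1 and for Epcam, with the 6 droplets of 50 or more member UMIs left out. The sum of 9 lies between 1.43 and 1.68 at every depth, while Epcam goes from 0.0143 to 0.299.

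For the members, which were chosen with these data known, the mix in the other cells was close to that of the largest droplet. Cela1 was the exception. Acinar genes outside the members leaned lower, as given below. For 35 secreted acinar genes the share of each in the 3200 acinar UMIs of the other 1472 kept cells was divided by its share in the 75084 of the largest droplet. Of the 10 members, 9 lay within 1.25-fold of 1, and for 6 the interval held 1. The trypsinogens were at 0.967 (Prss2), 0.984 (Try4) and 0.845 (Try5, interval 0.728 to 0.977). Cela2a was at 0.921, Cela3b at 1.09 and Ctrb1 at 1.103 (1.02 to 1.19), and the Reg genes at 0.985 (Reg1), 0.974 (Reg2) and 1.195 (Reg3b, 1.06 to 1.34).

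Cela1 was at 4.52 (3.75 to 5.42). Its 141 UMIs compare with 31.2 given by the profile of the largest droplet, an excess of 109.8 UMIs, or 0.0746 per cell. The next member was Reg3b, at 1.195. The droplet with 3868 member UMIs held 50 of Cela1 and the one with 1331 held 18, and in both it was again the lowest of the 10.

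The 25 other acinar genes leaned lower, with a median ratio of 0.765. The interval held 1 for 15 of them, lay below 1 for 8 and above 1 for 2. Those below were the lipases Pnlip (0.497) and Pnliprp1 (0.565), the carboxypeptidases Cpa1 (0.594) and Cpb1 (0.694), the chymotrypsin-like Ctrl (0.641), the granule proteins Gp2 (0.471) and Zg16 (0.671), and Reg3g (0.606). Above 1 were Rnase1 (1.29), a ribonuclease, and Erp27 (21.1), a protein of the endoplasmic reticulum, with 18 UMIs in the other cells and 20 in the largest droplet. The ratios rest on the profile of 1 droplet, and the mix differed among the acinar-rich droplets too. In the one with 1331 member UMIs, Pnlip and Cpa1 had 8 UMIs each of 1778 acinar UMIs, while in the largest droplet they had 2078 and 2369 of 75084.

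**Figure D3:**
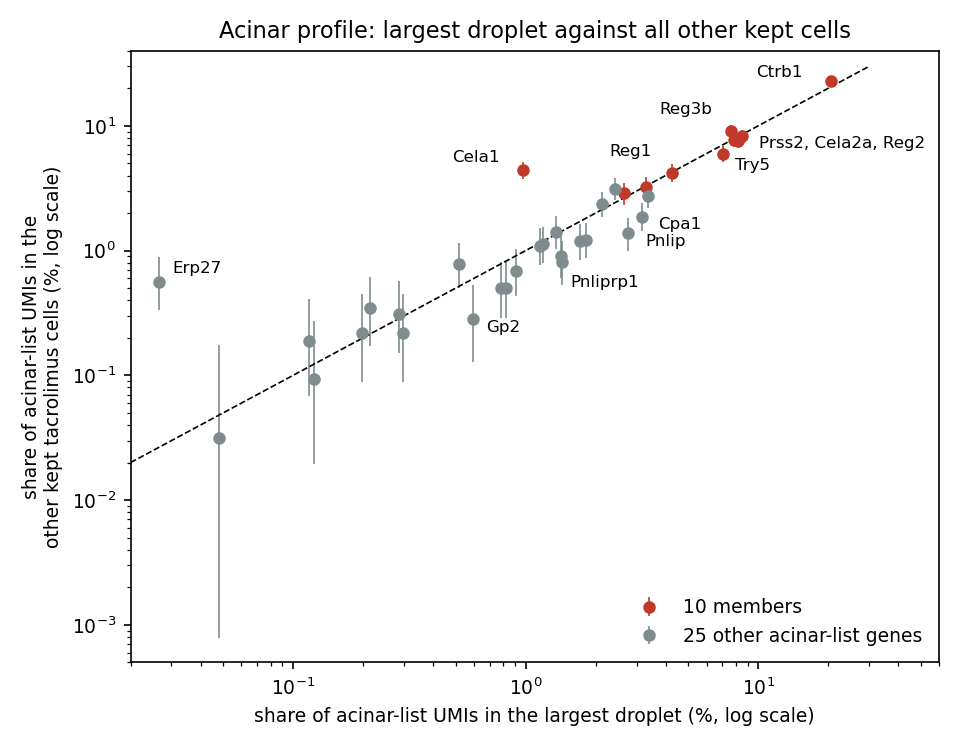
Share of each of 35 acinar genes in the acinar UMIs of the largest tacrolimus droplet (x) and of the other 1472 kept tacrolimus cells (y), both in % on log axes, with exact binomial 95% intervals on y and the line of equal shares dashed; Cela3b and Try4 are among the unlabelled red points. The other 9 members lie along the line and Cela1, at a ratio of 4.52, lies above it, as does Erp27 at 21.1.

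Reg genes and enzymes stood in close to the same proportion in the other tacrolimus cells as in the largest droplet. Reg1, Reg2 and Reg3b made up 27.6% of the member UMIs in the other kept cells (25.8 to 29.4) and 27.8% in the largest droplet (27.4 to 28.2). The share was 28.5% in the droplet with 3868 UMIs and 32.8% in the one with 1331 (30.3 to 35.4). It was lower in the droplets with 224 UMIs (12.5%, 8.47 to 17.6) and 106 UMIs (13.2%, 7.41 to 21.2), and 25% (14.4 to 38.4) in the one with 56. The one with 224 UMIs also stood apart by its 148 UMIs of Clps, the cofactor of pancreatic lipase.

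Over depth the share stayed within overlapping intervals. It was 28.3% in droplets under the minimum of genes (23.7 to 33.2) and 26.6%, 30.2%, 26.8% and 26.7% in the 4 sets by depth. Within the 3 genes, Reg3b gave 11.96% of member UMIs in the other kept cells, Reg2 10.1% and Reg1 5.51%, against 10.7%, 11.1% and 5.98% in the largest droplet. Reg3b thus stood above Reg2 in the cells and below it in the largest droplet. In kept anti-IL-2 cells the share of the 3 Reg genes was lower, 18 of 195 member UMIs (9.23%, 5.56 to 14.2). Without the myeloid-gene cluster, described below, it was 4 of 131 (3.05%, 0.838 to 7.63). Cela1 alone gave 103 of the 195 and 82 of the 131. These UMIs are few and were read from values altered by batch integration. Why the share was lower was not tested.

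Cells with more enzyme UMIs also held Reg UMIs more often. Counting the 6 enzyme members without Cela1, 20.3% of 575 cells with 0 enzyme UMIs held a Reg UMI (17.1 to 23.9). The share was 37.8% of 473 cells with 1, 39.4% of 254 cells with 2 and 50.6% of 170 cells with 3 or more (42.8 to 58.3). The median totals of the 4 sets were 12847, 13844, 13644 and 12049 UMIs, so depth did not go up with the enzymes. Cela1 had no such order, with 7.30%, 9.51%, 8.27% and 7.65% of the same sets.

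Over all 1475 kept cells the correlation of summed enzymes without Cela1 and summed Reg UMIs rounded to 1. Over the 1472 cells without the droplets set apart it was 0.253, and that of Cela1 with the sum of the other members was 0.011. In counts this sparse such values are descriptions only.

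**Figure D4:**
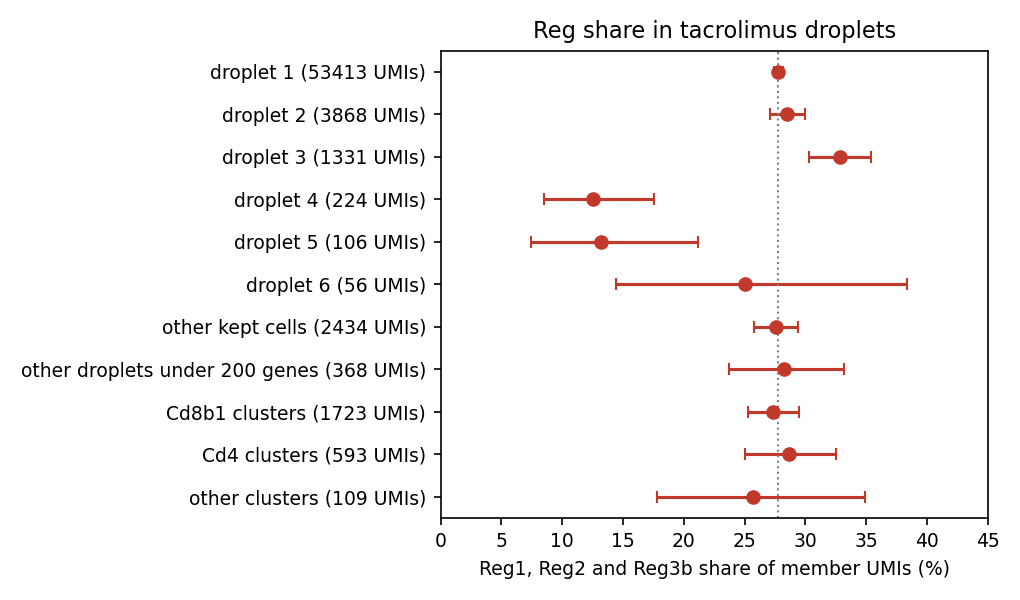
Share of Reg1, Reg2 and Reg3b among the UMIs of the 10 acinar genes (%), with exact binomial 95% intervals, in the 6 tacrolimus droplets set apart and in sets of the other droplets, each with its number of member UMIs, and a dotted line at the value of the largest droplet. The sets of cells lie between 25.7% and 28.7%, near the 27.8% of the largest droplet, and 2 of the 6 droplets lie at 12.5% and 13.2%.

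Cells were clustered without the pancreatic genes. In 8 clusters between 87.9% and 100% of tacrolimus cells held Cd8b1, a chain of the CD8 coreceptor, and in 5 between 84% and 94.4% held Cd4, and they are called Cd8b1 clusters (1064 tacrolimus cells without the droplets set apart) and Cd4 clusters (339 cells). No T-cell type was named, because fewer than 3 markers of each were measured. A cluster led by Jchain (16 tacrolimus cells), the joining chain of secreted antibody, and a cluster led by S100a9, S100a8 and other myeloid genes (46 cells, of which 28.3% also held Cd8b1) were the other lineages.

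The 9 members without Cela1 were at 1.54 UMIs per cell in the Cd8b1 clusters and 1.62 in the Cd4 clusters, a ratio of 0.949 (0.862 to 1.05), at median totals of 14455 UMIs in Cd8b1 clusters and 11135 in Cd4 clusters. In the cells of the other 2 clusters together the sum was 1.53 per cell, a ratio to the Cd4 clusters of 0.944 (0.751 to 1.18). That value joins 1.85 per cell (1.48 to 2.28) in 46 cells led by myeloid genes and 0.625 (0.2997 to 1.15) in 16 cells led by Jchain, and these intervals did not overlap. Shares of cells with a UMI of the 9 were 69.2% in the Cd8b1 clusters, 68.4% in the Cd4 clusters and 69.4% in the others, and 76.2% in droplets under the minimum. With each cell thinned to 5000 UMIs, which left out 25 Cd8b1, 9 Cd4 and 16 other cells, the shares were 38.8% in the Cd8b1 clusters, 47.6% in the Cd4 clusters and 30.4% in the others. Thinning takes a larger part of the UMIs of deeper cells, while the 9 members did not rise with depth. The gap between thinned Cd8b1 and Cd4 shares is therefore not read as a difference between the classes. Because cells of other classes and droplets under the minimum held these genes too, no expression by T cells is read from these shares, and the source of the UMIs was not tested.

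Shares of cells with a UMI in the Cd8b1 and Cd4 clusters were also compared for the members and for all genes. Of 933 genes in at least 5% of cells of either class, 20.4% were in a share of cells of the Cd8b1 clusters at least 1.5 times that of the Cd4 clusters, and 0 of the 10 members were. At the other end 6.32% of genes were at most 1 over 1.5, again with 0 of 10. With each cell thinned to 5000 UMIs, 7 members passed the 5% minimum. Of these, 0 were among the 11.0% of 797 genes at the upper end and 1, Reg1, among the 11.2% at the lower end. With only 10 members, and with thinning taking more from the deeper Cd8b1 cells, no property of the members is read from these counts.

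Cela1 and Reg1 had the lowest ratios per cell. Cela1 gave 0.0789 UMIs per cell in Cd8b1 clusters and 0.127 in Cd4 clusters, a ratio of 0.622 (0.426 to 0.921). Reg1 gave 0.0818 in Cd8b1 clusters and 0.130 in Cd4 clusters, a ratio of 0.630 (0.434 to 0.927), while Reg2 was at 0.828 (0.619 to 1.12) and Reg3b at 1.12 (0.841 to 1.52). The other 6 members lay between 0.877 (Cela2a) and 1.41 (Cela3b), each with an interval that held 1. In anti-IL-2 cells Cela1 had the same order, 0.0613 UMIs per cell in Cd8b1 clusters and 0.0961 in Cd4 clusters, a ratio of 0.638 (0.3995 to 1.03).

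The 2 small clusters parted. In the Jchain-led cluster the 9 members gave 0.625 UMIs per cell, 10 UMIs in 8 of 16 cells, a ratio to the Cd4 clusters of 0.385 (0.184 to 0.714), although its median total of 14897 UMIs was not low. Ctrb1 had 0.0625 UMIs per cell there, against 0.507 in Cd4 clusters. In the myeloid-gene cluster the 9 members gave 1.85 UMIs per cell, a ratio of 1.14 (0.895 to 1.43). Cela1 gave 0.304 per cell there, 14 UMIs in 6 of 46 cells, a ratio of 2.40 (1.21 to 4.47) that rests on few cells. Of the 3 cells outside the droplets set apart with 3 or more Cela1 UMIs, 2 were in this cluster, with 5 and 3, and 1, with 5, was in a Cd4 cluster.

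Between the libraries, 9 of the 10 members were in far more tacrolimus than anti-IL-2 cells, and Cela1 was not. Of 964 genes in at least 5% of cells of either library, 18.3% were in a share of tacrolimus cells at least 1.5 times that of anti-IL-2 cells. Of the 10 members, 9 were among them, as the choice of members fixes, and 0 were among the 8.92% at the other end. The anti-IL-2 values had been altered by batch integration, and UMIs were read from them after the shift had been estimated and removed. Tacrolimus cells were thinned to the same depths.

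Any of the 10 members was detected in 71.1% of tacrolimus cells and 10.6% of anti-IL-2 cells, a ratio of 6.72 (5.60 to 8.13). Without Cela1 the shares were 68.7% of tacrolimus cells and 4.15% of anti-IL-2 cells, a ratio of 16.6 (12.5 to 22.4). Of the 51 anti-IL-2 cells behind the 4.15%, 27 were in the myeloid-gene cluster, which held 58 of the 1229 cells. In that cluster many values after removal of the shift did not fall at whole UMIs. Of its 522 values of the 9 members, 66 lay between 0.2 and 0.5 of the level of 1 UMI. Another 22 lay between 0.5 and 0.8 and 13 between 0.8 and 1.2. Of 10539 values in the other 1171 cells, 216 lay between 0.2 and 0.5, 8 between 0.5 and 0.8 and 22 between 0.8 and 1.2. There too more values lay between 0.2 and 0.5 than near 1 UMI, so the anti-IL-2 shares rest on the cut at 0.5. Without the cluster, 24 of 1171 anti-IL-2 cells (2.05%, 1.32 to 3.03) held a UMI of the 9, a ratio of 33.6 (22.4 to 52.7).

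Prss2 was in 16.1% of tacrolimus cells and 1.14% of anti-IL-2 cells, and in 9 of the 1171 (0.769%). Try4 was in 6.51% of tacrolimus cells and 0.488% of anti-IL-2 cells, and Try5 in 11.9% of tacrolimus cells and 0.407% of anti-IL-2 cells. Cela2a was in 14.8% of tacrolimus cells and 0.651% of anti-IL-2 cells, and Cela3b in 5.76% of tacrolimus cells and 0.163% of anti-IL-2 cells. The trypsinogens and these 2 elastases were thus in at most 1.14% of anti-IL-2 cells.

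Ctrb1 was in 35.9% of tacrolimus cells and 1.79% of anti-IL-2 cells, and in 10 of the 1171 (0.854%). It is the least certain of the 10, since its anti-IL-2 values carried the largest shift of the members, with a median deposited value of 0.626. With the shift left in, its ratio between the libraries was 1.01 in place of 20.04, and with no minimum of genes it was 10.99.

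Reg1 was in 8.34% of tacrolimus cells and 0.163% of anti-IL-2 cells, and Reg2 in 14.5% of tacrolimus cells and 0.244% of anti-IL-2 cells. Reg3b was in 16.9% of tacrolimus cells and 0.895% of anti-IL-2 cells, and all of its 11 anti-IL-2 cells were in the myeloid-gene cluster. In the other anti-IL-2 cells a UMI of Reg3b was detected in 0 of 1171 (exact upper bound 0.315%), which limits cells with a detected UMI and not cells that express the gene.

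Cela1 was in 8.27% of tacrolimus cells and 7.16% of anti-IL-2 cells, a ratio of 1.16 (0.871 to 1.54). Without the myeloid-gene cluster the anti-IL-2 share was 6.405% and the ratio 1.31 (0.978 to 1.77). Among the 249 kept anti-IL-2 cells whose totals could be read directly the ratio was 0.574, so its size is not fixed by these data. Its 1-UMI level was well marked, with 67 values between 0.8 and 1.2 of 1 UMI and 1 between 0.5 and 0.8 in the 1171 cells. Epcam, in 11.3% of tacrolimus cells and 11.6% of anti-IL-2 cells, and the acinar factor Bhlha15, in 0.881% of tacrolimus cells and 0.895% of anti-IL-2 cells, were also close between the libraries.

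**Figure D5:**
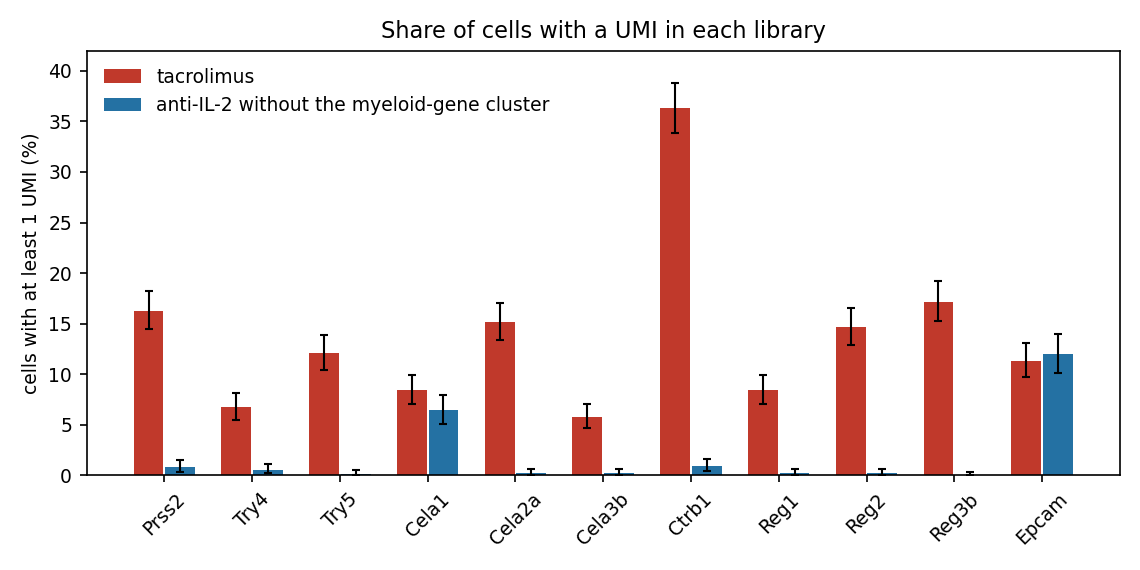
Share of kept cells with at least 1 UMI (%) of each of the 10 acinar genes and of Epcam, with exact binomial 95% intervals, in the tacrolimus library before thinning and in the anti-IL-2 library without the myeloid-gene cluster. All members but Cela1 are under 1% in anti-IL-2 cells, while Cela1 is in 8.41% of tacrolimus cells and 6.405% of anti-IL-2 cells and Epcam in 11.3% of tacrolimus cells and 11.96% of anti-IL-2 cells.

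The genes most like the members, outside the acinar lists, were genes of the largest droplet. That droplet held 95.4% of member UMIs in kept cells, so this ranking rests on 1 point and its outcome was fixed. By correlation with the summed member UMIs over all 1475 kept tacrolimus cells the first 10 were Ifi27l2b, Cldn10, Nupr1, Pcbd1, Rnase4, Krt18, Ang, Arg2, Clu and Gls2, with r between 0.9496 and 1. Nupr1, a stress-response gene, had 349 UMIs in that droplet and was in 60 other cells (4.08%). Ifi27l2b and Cldn10, a tight-junction claudin, had 2 UMIs there and were in 0 other kept cells. Over the 1472 cells not set apart the same 10 genes had r between -0.026 and 0.054, and the highest among 1964 genes was 0.135.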

How the data were processed

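Per the labels' protocols, a 10x Genomics 5′ kit and a NextSeq500 instrument gave the 2 libraries. Cell Ranger 3.1.0, Seurat and mm10 are named in the submitters' processing notes, while read filters and cell selection are not given in the sources used here. The deposited values, natural logs of counts scaled per cell by the authors, cover 2000 genes. Tacrolimus values were ln(1 + UMIs × 50000 / total), from which whole UMIs were read (tolerance 0.001). The tacrolimus file had 1996 columns, of which 308 repeated anti-IL-2 cells and were skipped. The libraries shared 4 barcodes, too few to bear on a share.

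In the deposited anti-IL-2 file 13.9% of natural log values were below 0, as after batch integration. Totals were fitted, and were within 1.25-fold for 94.9% of 374 cells whose totals could be read directly. The shift of each gene was estimated from the 30 nearest cells, as the middle of the shortest interval that held 40% of them, and removed. What was left counted as detected above 0.5 of the 1-UMI level. The design had assumed UMI counts for both files.

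Cells with 200 or more detected genes were kept. Scrublet, as run in scanpy 1.11.5 (Python 3.11.15, scipy 1.17.1), called 5 kept tacrolimus cells doublets, which were kept. Droplets with 50 or more member UMIs were set apart. Tacrolimus cells were thinned to anti-IL-2 depths by rank for comparisons between the libraries, and to 5000 UMIs where stated. Clusters were made on both libraries without the pancreatic genes, and 2 clusters with few tacrolimus cells entered no class. A gene was called where it was in at least 5% of cells of either side and its shares differed at least 1.5-fold. The named genes are the 10 members, other measured acinar-list genes, the 10 genes outside the lists most correlated with the member sum, and genes of known cell types. Members, lists and rules were chosen with earlier results of these data known. Alternatives were another detection level, no minimum of genes, no removal of the shift, readable totals, UMIs per 10000, classes from Cd4, Cd8a and Cd8b1 UMIs, and sets of cells left out. T-cell receptor sequencing was not analysed here.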

Additional observations from a re-analysis of the deposited data

How the results depend on the processing

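The share of kept tacrolimus cells with a UMI of any of the 10 genes, 71.4%, was 17.6% at 2 or more UMIs and 63.2% with the repeated anti-IL-2 columns counted as tacrolimus cells. The ratio of this share between the libraries, tacrolimus over anti-IL-2, was 6.72. It became 1.72 with the integration shift left in and 4.27 for cells with readable totals. It was 8.78 without the anti-IL-2 cells of the myeloid-gene cluster, of which 35 of 58 held a member UMI. The last 2 values rest on fewer cells, and why the values moved was not tested. The variance over the mean of the summed UMIs, 50934 over all kept cells, was 1.44 without the 1% of cells with the most, 1.83 without the droplets set apart and 4479 per 10000 UMIs. The ratio of member UMIs per cell in Cd8b1 over Cd4 clusters was 0.926. It was 0.678 per 10000 UMIs, where the deeper Cd8b1 cells are divided by more. With the droplets set apart put back it was 0.011. The largest droplet, with 0 UMIs of Cd4, had been placed in a Cd4 cluster, and that value rests on it. The Reg share of 27.7% over all kept tacrolimus cells was 21.7% when all measured enzyme genes were counted with the members. In 0 of the alternatives did a called value change direction. Ratios of single members moved in both directions. With the shift left in, Reg2 was at 9.38 (59.4 as reported), Prss2 at 6.197 (14.2), Cela2a at 8.69 (22.8), Reg3b at 8.01 (18.9) and Ctrb1 at 1.01 (20.04). For cells with readable totals Try5 was at 7.03 (29.3), Cela2a at 5.98, Reg3b at 6.79, Ctrb1 at 12.2 and Cela1, which was not called as reported, at 0.574 (1.16). Without the myeloid-gene cluster Try5 and Cela2a were at 140.5 and 88.5, with 1 and 2 anti-IL-2 cells left. The alternatives that leave out or put back droplets set apart, leave out the myeloid-gene cluster or use the detection level of 0.8 were chosen after seeing the data. No paired analysis was possible because there was 1 library per treatment. Without thinning to equal depths the ratio between the libraries for any of the 10 genes was 6.75. The shares count cells with a detected UMI, and no alternative replaces a second library.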

Other observations

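Bhlha15 and Epcam, which the acinar and duct lists hold, were highest per cell in the Jchain-led cluster. Bhlha15, a transcription factor known in acinar cells and also in antibody-secreting plasma cells, had 16 of its 18 UMIs in the kept tacrolimus cells in the Jchain-led cluster, where 11 of 16 cells held it. In anti-IL-2 cells it had 14 UMIs in 9 of the 18 cells of that cluster. Epcam gave 2.44 UMIs per cell in the Jchain-led cluster of the tacrolimus library, against 0.164 in Cd8b1 and 0.0560 in Cd4 clusters, and 0 in the myeloid-gene cluster. Xbp1, a factor of secretory cells, gave 54.7 UMIs per cell in the same Jchain-led cluster, where the 10 acinar genes gave 0.625. Erp27 had 15 of its 18 UMIs in Cd8b1 clusters (1064 cells) and 3 in Cd4 clusters (339 cells). The ratio per cell was 1.59, with an interval that held 1 (0.451 to 8.58).

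The droplet with 106 member UMIs, which also held 24 UMIs of Cd8b1, had 35 UMIs of Dmbt1, a secreted scavenger-receptor protein, while the largest droplet had 222 among 75084 acinar UMIs. Dmbt1 had 145 UMIs in the droplet with 3868 member UMIs. The droplet with 224 member UMIs held 148 UMIs of Clps and 3 of Reg2. In the anti-IL-2 library 1 cell of a Cd8b1 cluster held 10 UMIs of Prss2 and 0 of the other 9 members. Another held 8 member UMIs of 6 genes, 3 of them of Cela2a. Outside the members, Rnase1 was in 0 of 1229 anti-IL-2 cells (exact upper bound 0.2997%), which limits cells with a detected UMI.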
